A study of Homo sapiens with 5 samples.

Results

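The genes described here are small interferon-stimulated proteins: ISG15, ISG20, IFI35, IFI6, IFI27, IFITM1, IFITM2, IFITM3 and BST2. They were taken as every probe set of the deposited value table annotated to one of these symbols, which gave 10 probe sets of 7018, for 9 genes of the 5595 that the annotation names. ISG15, ISG20, IFI6, IFI27, IFITM1 and BST2 had 1 probe set each and IFI35 had 2. A further 2 probe sets were annotated to both IFITM2 and IFITM3, so these close paralogs cannot be told apart and are written IFITM2/IFITM3. ISG15, ISG20 and IFI35 were already known from these data as high at 18 h. The 18 h values of the members are therefore a description and are given without p-values.

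RNA came from the line T84, cells of a human colon carcinoma that grow as an epithelial sheet and serve to study the gut lining. The cells had been left untreated or given interferon-gamma (IFN-gamma), a cytokine of activated lymphocytes, at 1000 U/ml for 6 h or 18 h. Labelled RNA was read on 5 Affymetrix arrays: 1 for untreated cells (0 h), a pool according to its label, 2 for 6 h and 2 for 18 h. The labels call the arrays biological replicates without saying how cultures were kept apart, so the spread between them may be partly technical.

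IFN-gamma acts through its receptor, JAK kinases and a STAT dimer that binds gamma-activated sites. Type I and type III interferons act mainly through a complex of STAT proteins with IRF9 that binds interferon-stimulated response elements, and members of the IRF family can bind these elements too. Many antiviral genes therefore respond to several interferons. Among the genes described here, ISG15 is a ubiquitin-like protein that is coupled to other proteins and is also secreted, ISG20 is an exonuclease that degrades RNA, and IFI35 is a leucine-zipper protein of cytosol and nucleus. IFI6 and IFI27 are small hydrophobic proteins found at membranes, the IFITM proteins hinder the fusion of viruses with cell membranes, and BST2 (tetherin) holds budding virus particles at the cell surface.

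The sequence before the transcript start of each gene is shown because both kinds of site can be read in it. RefSeq promoters (GRCh38.p14) were found for 8 of the 9 genes, and the 250 bases before the start were searched. IFITM2 was not among them. The response element was searched as GAAA, any 2 bases and GAAA, on both strands, and the gamma-activated site as TTC, any 3 bases and GAA, which reads the same on both strands. Capitals mark the matches, overlapping ones run together, and each line is written 5′ to 3′ on the strand of the gene.
ISG15, chr1:1013372-1013411, plus strand: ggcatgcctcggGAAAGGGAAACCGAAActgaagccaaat
ISG20, chr15:88638935-88638968, plus strand: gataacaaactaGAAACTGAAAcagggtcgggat
IFI35, chr17:43006750-43006782, plus strand: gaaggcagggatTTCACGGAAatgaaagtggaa
IFI6, chr1:27672264-27672360, minus strand: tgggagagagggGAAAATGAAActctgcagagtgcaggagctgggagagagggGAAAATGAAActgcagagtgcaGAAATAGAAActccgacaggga
IFI27, chr14:94110616-94110662, plus strand: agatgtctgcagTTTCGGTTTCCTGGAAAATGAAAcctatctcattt
IFITM1, chr11:313988-314039, plus strand: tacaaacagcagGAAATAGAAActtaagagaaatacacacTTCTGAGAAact
IFITM3, chr11:320874-320924, minus strand: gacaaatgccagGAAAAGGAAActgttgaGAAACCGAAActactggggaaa
BST2, chr19:17405668-17405778, minus strand: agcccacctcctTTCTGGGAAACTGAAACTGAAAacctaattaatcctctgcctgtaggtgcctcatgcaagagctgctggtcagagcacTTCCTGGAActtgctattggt

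The response element letters occurred in 7 of these 8 promoters, and in at least 2 places in 5 of them (ISG15, IFI6, IFI27, IFITM3 and BST2). They occurred in 3.02% of all 35116 RefSeq promoter windows of the same length, and in 10 of the 20 other interferon-stimulated genes, from a list described further on, whose promoter was in the table. The promoter that lacked them was that of IFI35, which held gamma-activated site letters at 22 bases before the start. Gamma-activated site letters occurred in 4 of the 8 (IFI35, IFI27, IFITM1 and BST2), against 6.57% of all promoters and 1 of the 20 other interferon-stimulated genes. Both motifs stood in 3 of the 8, against 0.31% of all promoters. In IFI27 the 2 response element matches run in opposite directions and overlap a single gamma-activated site match between them. In BST2 the first of 2 gamma-activated site matches overlaps the first of a pair of response element matches, and these overlap each other. The RefSeq table lists 2 starts for IFI27, and the first was used. A match of letters is a description of sequence and does not show that a factor binds there. Likewise the lack of a match to these exact letters, as in IFI35, does not show that no factor binds.

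**Figure D1:**
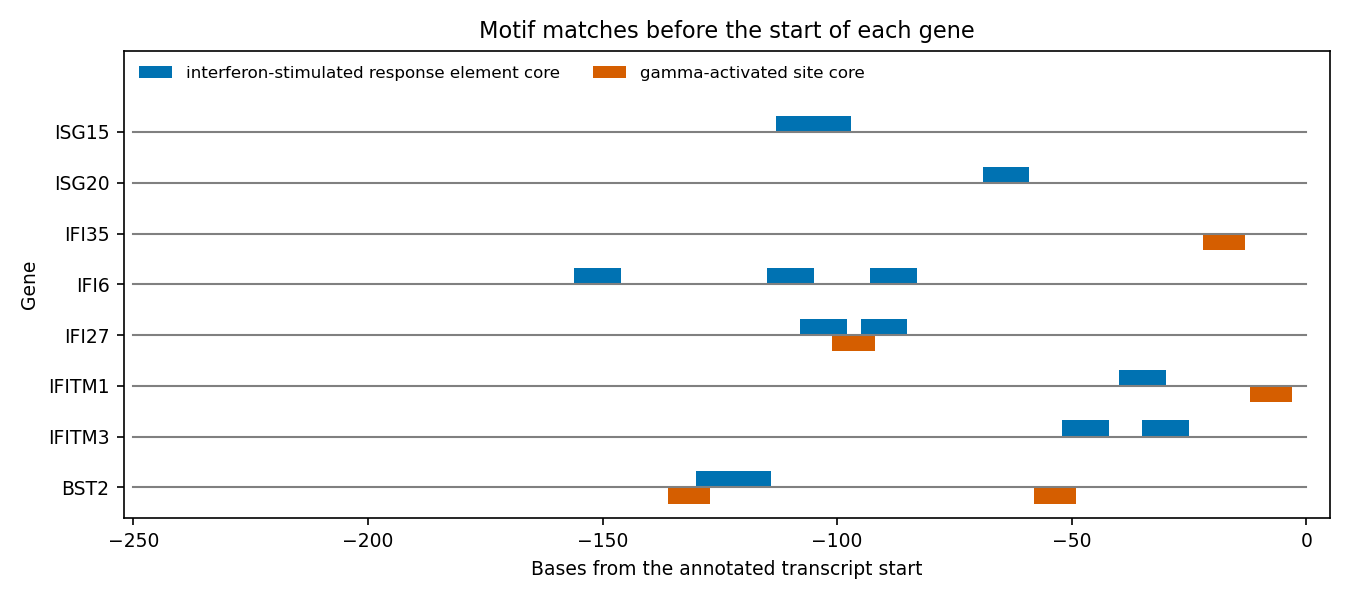
Matches to 2 interferon-related motif cores in the 250 bases before the annotated start of 8 genes, with the distance from the start in bases on the horizontal axis and 1 line per gene. Blue bars above a line are response element cores and orange bars below it are gamma-activated site cores. Of the 8 genes, 7 have a blue bar, and IFI35 has an orange bar alone.

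Intensities are given as the authors deposited them, on a linear scale that includes negative values. A value of 20 was used as a floor, and 9 of the 10 probe sets rose above it on at least 1 array, as did 5029 of 7018 in all. The probe sets fell into bright and dim ones: 7 had a mean of at least 100 at 18 h, 1 each for ISG15, ISG20, IFI35, IFI27, IFITM1, IFITM2/IFITM3 and BST2. The other 3 were near or below the floor. IFI6 had -145 on the untreated-labelled array, -110 and -49 on the 6 h arrays, then 27 and -38 on the 18 h arrays, so it passed the floor on a single array and no level can be given for it. The second IFITM2/IFITM3 probe set was negative on all 5 arrays, between -103 and -46. The second IFI35 probe set had 41, then 27 and 38, then 37 and 52, so its 18 h values overlapped the earlier ones.

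The arrays differ in ways that bear on every value below. IRF1 and CXCL10, classic targets of IFN-gamma, had 1086 and 1317 on the untreated-labelled array and 14 and 41 on the array labelled 6 h replicate 1, against 907 and 1149 on 6 h replicate 2. For these genes the untreated-labelled array and 6 h replicate 1 thus go against their labels. The bright members were divided: ISG20, IFI35, IFITM1 and IFITM2/IFITM3 also read higher on the untreated-labelled array than on 6 h replicate 1. ISG15, BST2 and IFI27 read lower on it. Whether the labels are right was not tested, and each direction drawn from these arrays rests on the label alone. The range of the intensities differed as well: over 470 probe sets with a mean of at least 500 that are not members, the median was 979.5 on the untreated-labelled array, 1156.5 and 819.5 on the 6 h arrays, then 868.5 and 971.5 on the 18 h arrays. Epithelial identity was plain on all arrays, with all 15 measured epithelial and colonic markers at an 18 h mean of at least 100 and their summed intensity between 11577 and 20053 per array. VIL1, GUCY2C and CDX2 differed most at 18 h among them, with villin (VIL1), an actin bundler of microvilli, at 441 on the untreated-labelled array and 193 ± 29.7 (SD, n = 2) at 18 h. The sum of 12 leukocyte markers ran from -101 to 208 per array, with PTPRC between 15 and 38, CD14 negative on all arrays and CD3E alone above 100 throughout (168 to 345). Lysozyme (LYZ), which epithelial cells can make as well, differed most at 18 h in that list, with 135 on the untreated-labelled array and 59.5 ± 7.78 (SD, n = 2) at 18 h. The sum of 9 fibroblast and endothelial markers ran from 150 to 396, with VIM between -30 and 27, COL1A1 between 43 and 158 and PECAM1 at 101 on 6 h replicate 2. THY1, a surface glycoprotein of fibroblasts, differed most at 18 h in that list, with -17 on the untreated-labelled array and 62 to 83 on the treated arrays. ACTA2, smooth muscle actin, had 5 on the untreated-labelled array, -12 and 8 on the 6 h arrays and 61 and 36 on the 18 h arrays. Their part in the values of the members was not tested.

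Among the bright members, ISG15 gave the widest gap between the lower of the 18 h arrays and the highest of the earlier arrays. Its intensity was 176 on the untreated-labelled array, 265 and 315 on the 6 h arrays, then 1025 and 1089 on the 18 h arrays. All 3 groups were apart, and the 18 h mean of 1057 ± 45.3 (SD, n = 2) was 6.01-fold above the untreated-labelled array and 3.36-fold above 6 h replicate 2. The log2 difference was 2.58 (SE 0.24) for 18 h against untreated and 1.87 (SE 0.20) for 18 h against 6 h. The latter was larger for IFITM2/IFITM3 (2.08, SE 1.12) and IFI35 (1.93, SE 0.98), with wider errors. Unlike IRF1 and CXCL10, ISG15 did not set the 6 h arrays apart from each other: replicate 2 was 1.19-fold above replicate 1. It also read lowest on the untreated-labelled array, where IRF1 and CXCL10 were high. In whole cultures a higher level per cell and a larger share of responding cells cannot be told apart.

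The enzymes that couple ISG15 to its targets could hardly be followed. Of 7 symbols listed for this pathway, only TRIM25, a ligase that can act on ISG15, had a probe set annotated to it alone. That probe set was negative on all 5 arrays (-110 to -51). Probe sets with several symbols were not searched for this list.

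ISG20 also stood highest at 18 h. It had 765 on the untreated-labelled array, 448 and 809 on the 6 h arrays, then 1436 and 1887 on the 18 h arrays. Both 18 h arrays lay above all others, and their mean of 1661.5 ± 319 (SD, n = 2) was 2.17-fold above the untreated-labelled array and 2.05-fold above 6 h replicate 2. Its log2 difference was 1.10 (SE 0.50) for 18 h against untreated and 1.45 (SE 0.41) for 18 h against 6 h. The array labelled 6 h replicate 1 was lowest, and without it the second difference was 1.02.

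IFI35 had 433 on the untreated-labelled array, 118 and 656 on the 6 h arrays, then 1006 and 1121 on the 18 h arrays by its brighter probe set. Here the 6 h arrays were 5.56-fold apart, on either side of the untreated-labelled array. The 18 h mean was 1063.5 ± 81.3 (SD, n = 2), 2.46-fold above the untreated-labelled array and 1.62-fold above 6 h replicate 2. The log2 difference for 18 h against 6 h was 1.93 (SE 0.98) and fell to 0.69 without 6 h replicate 1. Against untreated, 18 h differed by 1.29 (SE 1.21).

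Among the membrane proteins that restrict viruses, IFITM2/IFITM3 set the array labelled 6 h replicate 1 apart the most. It had 1488 on the untreated-labelled array, 177 and 1190 on the 6 h arrays, then 1578 and 2412 on the 18 h arrays. The array labelled 6 h replicate 1 lay apart at the low end, 6.72-fold below 6 h replicate 2 and 8.41-fold below the untreated-labelled array. The 18 h mean was 1995 ± 590 (SD, n = 2), only 1.34-fold above the untreated-labelled array. For 18 h against 6 h the log2 difference was 2.08 (SE 1.12), and 0.71 without 6 h replicate 1. This is also the member that the authors placed in their deposited list of induced genes, where it is the only 1 of the 10 and stands at place 80 of the 97 entries used here. That list has a control column of its own, which reads 254 for IFITM2/IFITM3 where the value table reads 1488, while the treated columns are the same. Against 254, the 18 h mean is 7.85-fold higher, 6 h replicate 2 is 4.69-fold higher and the value table's untreated array 5.86-fold higher. The list was selected on these arrays, and so is no independent evidence of induction.

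IFITM1, a paralog of the same gene cluster, did not share that pattern. Its intensities were 1505 on the untreated-labelled array, 1344 and 950 on the 6 h arrays, then 812 and 1927 on the 18 h arrays. Both the lowest and the highest value came from 18 h, 2.37-fold apart, so the groups overlap in full. For 18 h the log2 difference was -0.27 (SE 0.68) against untreated and 0.15 (SE 0.55) against 6 h. Its 3 highest values lie on 18 h replicate 2, the untreated-labelled array and the array labelled 6 h replicate 1, which are also the 3 arrays on which bright probe sets read highest. GAPDH, a glycolytic enzyme that is abundant in most cells, had its 3 highest values on the same arrays (1743, 2557 and 1228 on the first 3 arrays, 1276 and 2238 at 18 h). ACTB, PGK1 and YWHAZ, other housekeeping genes, also had their 3 highest values there. Of the remaining housekeeping genes, HPRT1 and SDHA read highest on 18 h replicate 1 (339 and 422) and TBP on 6 h replicate 2 (67). Whether the range of the arrays bears on IFITM1 was not tested. After quantile normalization IFITM1 had 1503, 1056, 1233, 851 and 1597 in the same order of arrays: 6 h replicate 1 then lay below 6 h replicate 2, and the 18 h arrays still held both the lowest and the highest value.

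BST2 had 463 on the untreated-labelled array, 724 and 547 on the 6 h arrays, then 792 and 948 on the 18 h arrays. The groups were in order of time without overlap, but the gaps were small: the 18 h mean of 870 ± 110 (SD, n = 2) was 1.88-fold above the untreated-labelled array and 1.20-fold above the array labelled 6 h replicate 1. The log2 difference was 0.90 (SE 0.31) for 18 h against untreated and 0.46 (SE 0.25) for 18 h against 6 h.

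IFI27 had 905 on the untreated-labelled array, 1734 and 880 on the 6 h arrays, then 1238 and 1725 on the 18 h arrays. Its highest value came from the array labelled 6 h replicate 1, where IFI35 and IFITM2/IFITM3 were lowest, and the 6 h and 18 h groups overlapped. The log2 difference was 0.69 (SE 0.56) for 18 h against untreated and 0.24 (SE 0.46) for 18 h against 6 h. After quantile normalization, which gives all arrays the same range, the values were 901, 1264, 1064, 1547 and 1435 in the same order of arrays, and both 18 h arrays then lay above the others.

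**Figure D2:**
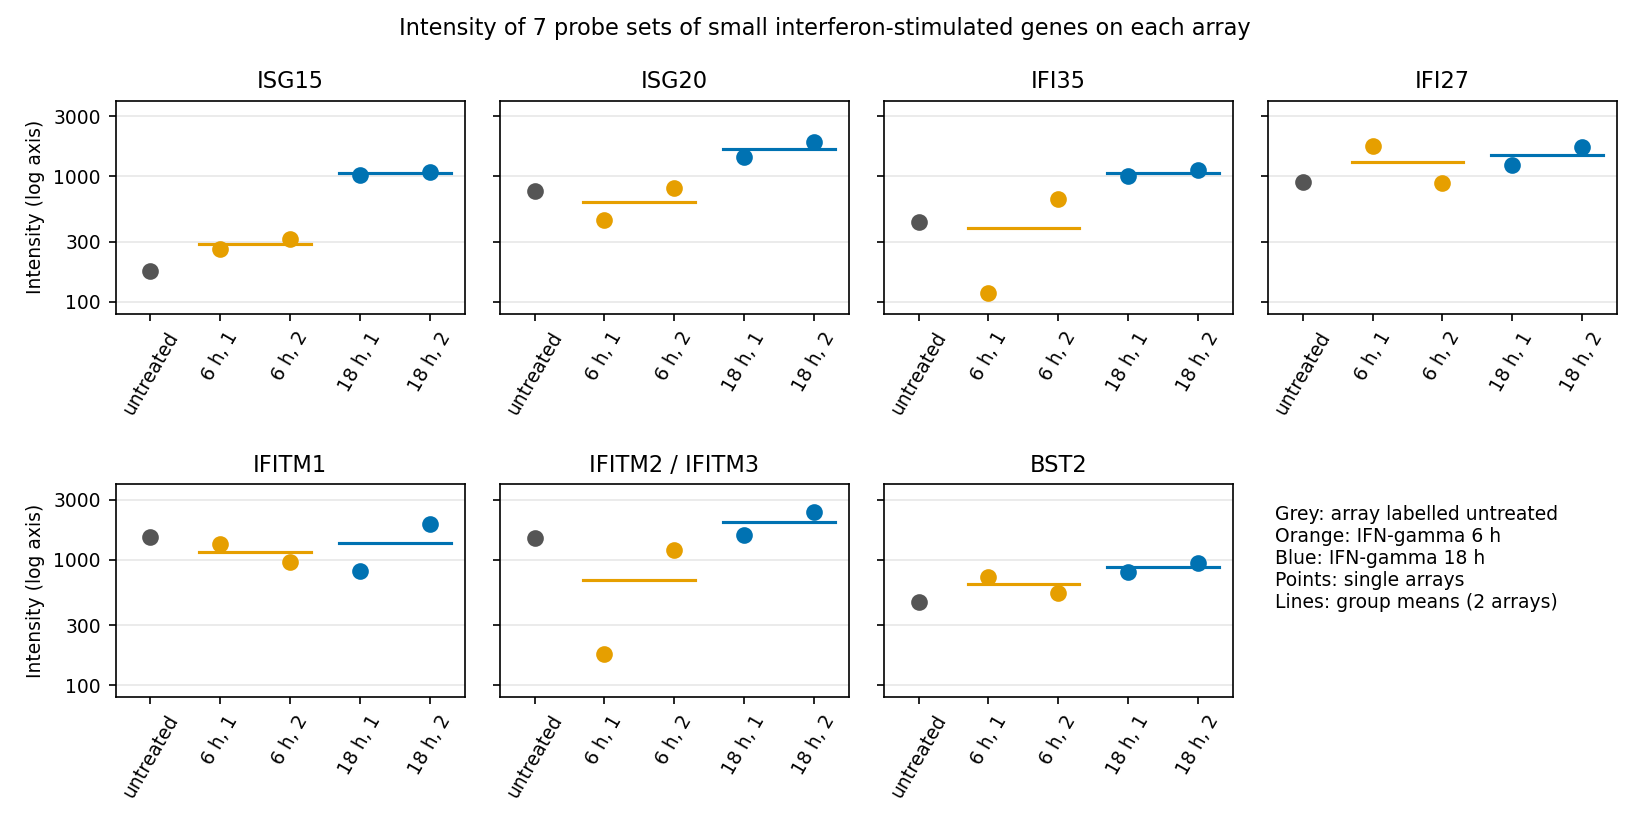
Intensity on a log axis of the 7 probe sets with an 18 h mean of at least 100, on the untreated-labelled array (grey), the 6 h arrays (orange) and the 18 h arrays (blue). Points are single arrays and lines are means of 2 arrays. In ISG15 the 18 h arrays (1025 and 1089) stand clear of all others, while in IFITM1 they hold both the lowest and the highest value (812 and 1927).

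The 18 h arrays both lay above the other 3 arrays in 5 of these 7 probe sets, namely ISG15, ISG20, IFI35, IFITM2/IFITM3 and BST2, where 10.9% of the 2070 probe sets with an 18 h mean of at least 100 did so. Since the members were chosen with 18 h values in view, the count is a description. Quantile normalization made it 6 of 7, with IFI27 added, against 11.8% of all. In the array labelled 6 h replicate 1, IFI35 and IFITM2/IFITM3 were at least 2-fold below each of the other 4 arrays, 2 of the 9 members above the floor against 4.81% of all such probe sets. ISG20 was lowest there by a smaller step, and ISG15, IFITM1, BST2 and IFI27 were not lowest on it.

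The members were then sorted by how near they stood to their 18 h level at 6 h. A member was called near that level on an array where its intensity was at least 0.667 (2/3) of the 18 h mean, and below it otherwise. On 6 h replicate 2 the ratio was 0.298 for ISG15, 0.487 for ISG20, 0.594 for IFI27, 0.596 for IFITM2/IFITM3, 0.617 for IFI35, 0.629 for BST2 and 0.694 for IFITM1. By this rule 6 of 7 were below their 18 h level on this array and IFITM1 alone was near it, where 14.1% of all 2070 probe sets were below. The rule does not by itself show a late rise from the untreated level. IFITM2/IFITM3 and IFI27 read higher on the untreated-labelled array (1488 and 905) than on 6 h replicate 2 (1190 and 880). The members from IFI27 to IFITM1 lie between 0.594 and 0.694, on both sides of the threshold and close to it. Among the 476 probe sets with an 18 h mean of at least 500, which includes all 7 members, 21.4% were below on this array. Quantile normalization moved IFI27 to 0.714, IFITM2/IFITM3 to 0.804 and IFITM1 to 1.01, all above the threshold. It left ISG15 at 0.262, ISG20 at 0.548, IFI35 at 0.607 and BST2 at 0.621, so 4 of 7 were below against 13.3% of all. Set against 18 h replicate 1 alone, 3 of 7 were below (ISG15 at 0.307, ISG20 at 0.563 and IFI35 at 0.652) and BST2 was above at 0.691, where 9.47% of all were below. Set against 18 h replicate 2 alone, all 7 were below, from 0.289 for ISG15 to 0.585 for IFI35, where 18.5% of all were. ISG15, ISG20 and IFI35 were thus below 2/3 on this array under both scalings and against either 18 h array. IFI35, by its brighter probe set, lay close to the threshold against 18 h replicate 1. These are the members already known from these data as high at 18 h. Their place below 2/3 was thus favoured in advance and is a description. The class of BST2, IFI27, IFITM1 and IFITM2/IFITM3 depended on these choices of scaling and 18 h array.

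**Figure D3:**
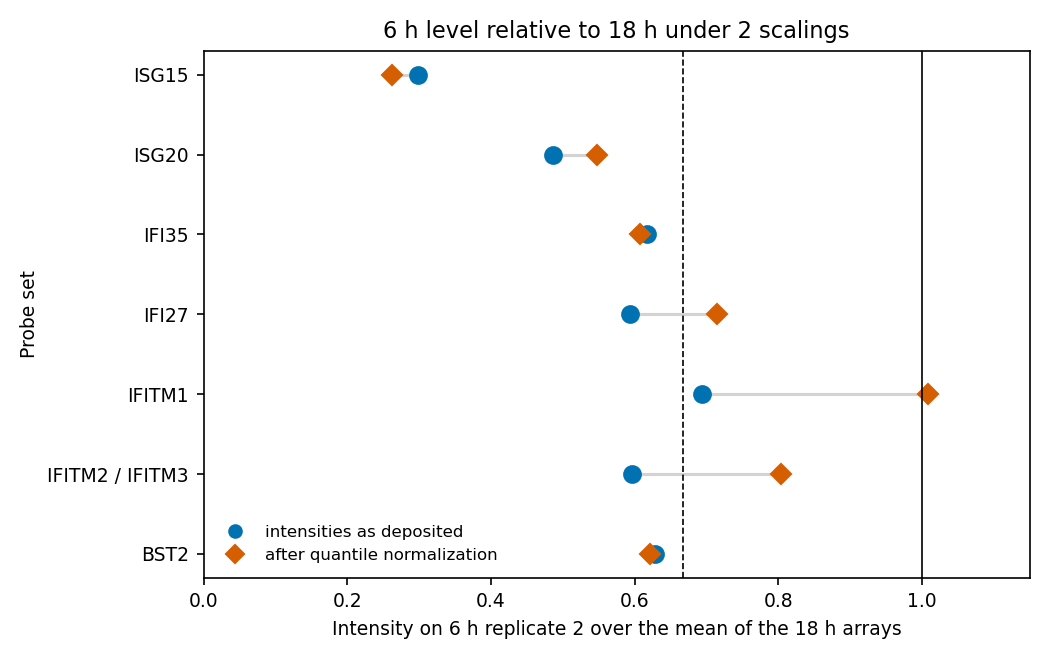
Intensity on 6 h replicate 2 divided by the mean of the 18 h arrays for 7 probe sets, as deposited (blue circles) and after quantile normalization (orange diamonds). The dashed line marks 2/3 and the solid line 1. ISG15, ISG20, IFI35 and BST2 lie left of the dashed line under both scalings, and IFI27 and IFITM2/IFITM3 cross it.

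The array labelled 6 h replicate 1 gave another order. The ratio to the 18 h mean was 0.0887 for IFITM2/IFITM3, 0.111 for IFI35, 0.251 for ISG15 and 0.27 for ISG20, and these 4 of 7 were below, where 24.8% of all were. BST2 at 0.832, IFITM1 at 0.981 and IFI27 at 1.17 were near or above their 18 h level on it. On the untreated-labelled array ISG15 had the lowest ratio, at 0.167, followed by IFI35 at 0.407, ISG20 at 0.46, BST2 at 0.532 and IFI27 at 0.611. IFITM2/IFITM3 at 0.746 and IFITM1 at 1.10 were above 2/3 there, and 13% of all probe sets were below. ISG15, ISG20 and IFI35 (brighter probe set) were therefore below 2/3 of their 18 h mean on all 3 earlier arrays. IFITM1, whose 18 h arrays were far apart, was below on none of them. Since ISG15, ISG20 and IFI35 were already known as high at 18 h, this too is a description.

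Other interferon-stimulated genes were measured for 24 of a list of 28, and 22 of them had an 18 h mean of at least 100. Of these 22, 7 were below 2/3 of the 18 h mean on 6 h replicate 2, 20 on the array labelled 6 h replicate 1 and 5 on the untreated-labelled array. Of all 2070 probe sets, 14.1%, 24.8% and 13% were below on these arrays. Their median ratio was 0.821, 0.227 and 0.874 on these arrays, beside 0.596, 0.27 and 0.532 for the 7 members and 0.982, 0.963 and 1.00 for all 2070 probe sets. No test of members against this list was made. The 3 that differed most at 18 h were TRIM22, an antiviral ligase, with 238 on the untreated-labelled array, 26 and 229 at 6 h and 486.5 ± 16.3 (SD, n = 2) at 18 h, GBP2, a guanylate-binding protein, with 168, then 15 and 178, then 319.5 ± 3.54, and IFI30, a lysosomal thiol reductase, with 560, then 116 and 549, then 1056.5 ± 180. Each of these 3 was below 2/3 on 6 h replicate 2 as well. By contrast the GTPase MX1 had 746 there and 771 ± 144 (SD, n = 2) at 18 h.

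Transcription factors of the interferon response were set against their 18 h level in the same way. None of the 5 with an 18 h mean of at least 100 was below 2/3 on 6 h replicate 2. Of all 2070 probe sets 14.1% were below there, so this count lies near the share of all. On the array labelled 6 h replicate 1, 4 of 5 were below, where 24.8% of all were. IRF7, which drives interferon genes, had 305 on the untreated-labelled array, 80 and 319 at 6 h, and 417.5 ± 47.4 (SD, n = 2) at 18 h. IRF8 had 218, then 40 and 170, then 182.5 ± 24.7, and IRF1 927 ± 8.49 (SD, n = 2) at 18 h. The receptor chains IFNGR1 and IFNGR2 had 177 and 78 on the untreated-labelled array and 91 ± 31.1 and 135.5 ± 24.7 (SD, n = 2) at 18 h, and the kinase JAK1 104 and 65.5 ± 40.3. Of 6 housekeeping genes with an 18 h mean of at least 100, 1 was below 2/3 on 6 h replicate 2, and their median ratio was 0.719, while that of 15 epithelial markers was 0.826. SDHA, TBP and PGK1 were the housekeeping genes that differed most at 18 h, with PGK1, a glycolytic enzyme, at 2473 on the untreated-labelled array and 2334.5 ± 824 (SD, n = 2) at 18 h.

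**Figure D4:**
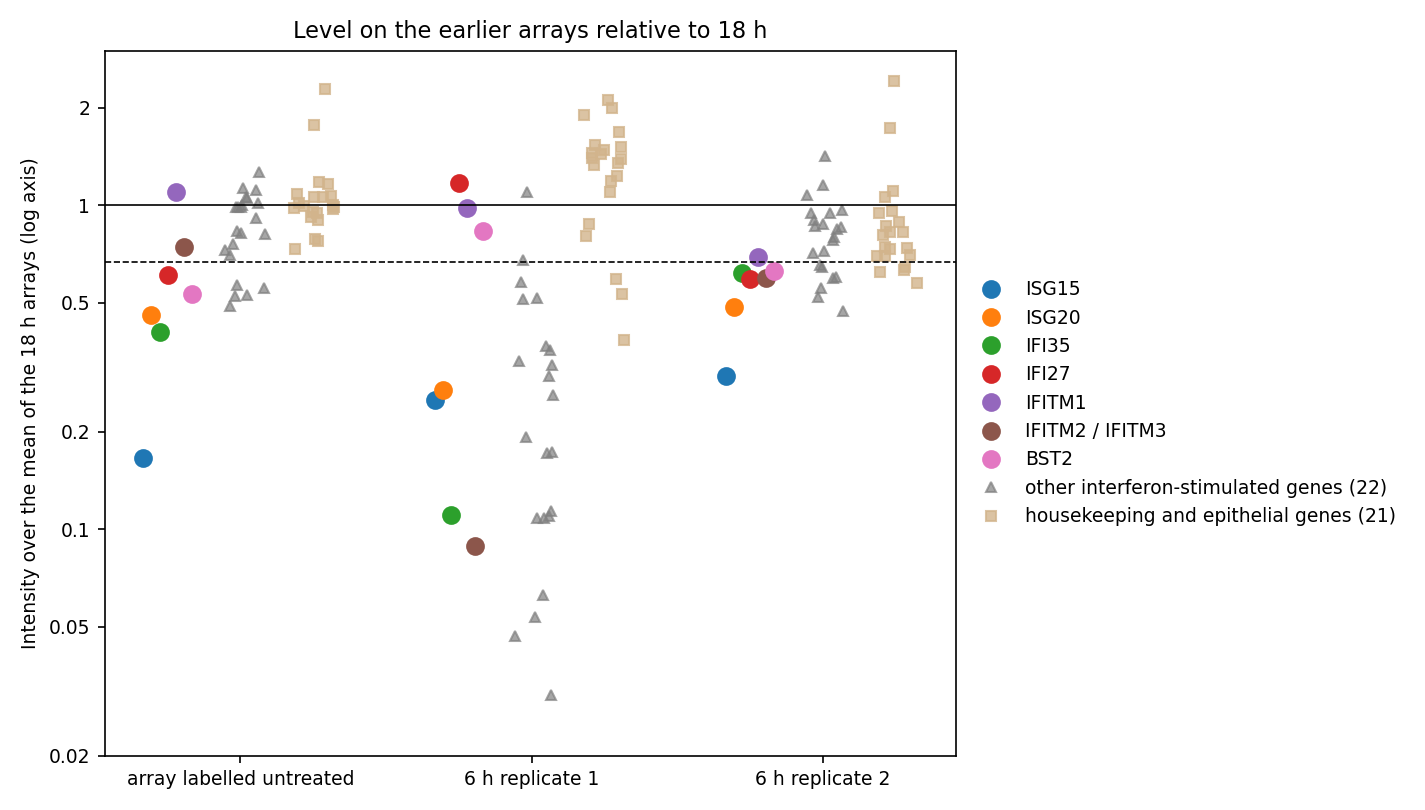
Intensity over the mean of the 18 h arrays (log axis) on the untreated-labelled array and each 6 h array, for 7 members (coloured circles), 22 other interferon-stimulated genes (grey triangles) and 21 housekeeping and epithelial genes (tan squares). The solid line marks 1 and the dashed line 2/3. On the array labelled 6 h replicate 1 most triangles lie far below the dashed line, and BST2, IFITM1 and IFI27 lie above it.

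Across all 5029 probe sets, group means were compared with limma on log2 values. For 6 h against untreated the test called 0 probe sets after Benjamini-Hochberg adjustment (0%), with 183 at an unadjusted p under 0.05 (3.64%), and 0 of the 9 members were among them. The members' differences there were 0.71 (SE 0.24) for ISG15, 0.45 (SE 0.56) for IFI27, 0.44 (SE 0.31) for BST2, -0.35 (SE 0.50) for ISG20, -0.41 (SE 0.68) for IFITM1, -0.63 (SE 1.21) for IFI35 and -1.69 (SE 1.37) for IFITM2/IFITM3, with an adjusted p = 1 from limma for each. Without 6 h replicate 1 they were 0.84, -0.04, 0.24, 0.08, -0.66, 0.60 and -0.32 in the same order, so that IFI27, ISG20 and IFI35 changed sign. The interval of the difference (95%) for ISG15 ran from -0.03 to 1.45 and that for BST2 from -0.50 to 1.39, so a doubling is within both. The other comparisons also called 0 probe sets (0%) in limma, with 223 (4.43%) at an unadjusted p under 0.05 for 18 h against untreated and 217 (4.31%) for 18 h against 6 h. In the lists above, 0 of the 24 interferon-stimulated genes and 0 of the 6 transcription factors passed in either direction.

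Over the 10 probe sets, taking those at the floor as unchanged, the median log2 difference was -0.17 at 6 h against untreated (3 above 0, 5 below), 0.54 at 18 h against untreated (8 above, 1 below) and 0.45 at 18 h against 6 h (9 above, 0 below). IFI6 is counted above 0 at 18 h in both, but it passed the floor on 18 h replicate 1 alone. Its sign there was therefore fixed and carries no information. Over all 5029 probe sets the medians were 0, -0.02 and -0.03, with 46.5%, 42.3% and 45.4% above 0. The 6 h and 18 h comparisons against untreated share that array, and the 2 at 18 h share the 18 h arrays, so these medians are not independent. They also rest on the labels of the 2 arrays that IRF1 and CXCL10 oppose. Set against the single array labelled 6 h replicate 1, the 18 h mean was 11.3-fold higher for IFITM2/IFITM3 (1.34-fold against the untreated-labelled array), 9.01-fold for IFI35 (2.46-fold), 3.99-fold for ISG15 (6.01-fold) and 3.71-fold for ISG20 (2.17-fold). As a ratio to that array, the 18 h mean was 1.20 for BST2 (1.88 to the untreated-labelled array), 1.02 for IFITM1 (0.91) and 0.854 for IFI27 (1.64).

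The genes whose pattern over the 5 arrays was most like that of a member differed between members. They were taken by Pearson's r on the log2 scale among probe sets that reached at least 200 and varied at least 2-fold, and with 5 arrays and so many candidates a high r is easily found, so the names are a description. For ISG15 the 5 most alike were SMPD1, UPF1, IDO1, HLA-E and MT1H (r from 0.96 to 0.97), of which IDO1, a tryptophan-degrading enzyme, had 113 on the untreated-labelled array, 88 and 153 on the 6 h arrays, then 903 and 906 on the 18 h arrays. For ISG20 they were ASS1, PTK6, PSMB10, MT2A and FUT3 (r from 0.97 to 0.99). PSMB10, a subunit of the immunoproteasome, had 543, then 376 and 813, then 1239 and 1470.

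By its brighter probe set, IFI35 was most like OAS2 (both probe sets), PSMB9, SEC24C and OASL (r = 0.99 for each). OASL, of the oligoadenylate synthetase family, had 284 on the untreated-labelled array, 86 and 300 on the 6 h arrays, then 520 and 477 on the 18 h arrays. IFITM2/IFITM3 was most like LASP1, PML, SECTM1, ETS2 and IRF7 (r from 0.99 to 1.00). PML, which forms nuclear bodies, had 308, then 64 and 295, then 313 and 426, with the low value on the same array. For BST2 they were ELF3, CENPX, LY6E, TNFRSF14 and SSTR4 (r from 0.92 to 0.96), and for IFI27 LIMK2, TSC2, SEM1, MADD and RHOC (r from 0.93 to 0.95). IFITM1 was most like CRMP1, TBC1D5, LGALS3BP, CREB3 and RPL37A (r from 0.93 to 0.98). RPL37A, a ribosomal protein, had 1350 on the untreated-labelled array, 1755 and 870 on the 6 h arrays, then 869 and 2254 on the 18 h arrays, with its high values on the same 3 arrays as GAPDH.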

How the data were processed

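RNA was taken with Trizol, fragmented, biotin-labelled and read on Affymetrix arrays, per the labels' protocols. The authors deposited whole-number intensities per probe set, with 25.3% to 29.5% negative on an array; their computation and scaling are not given in the sources used here. Of 7018 probe sets, 5649 have 1 symbol in the supplied annotation, 321 several and 1048 none.

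Intensities under 20 were set to 20, 1 was added and log2 taken, and 1989 probe sets never above 20 were left out. Such differences understate changes of dim genes. Groups were compared with limma 3.58.1 in R 4.3.3 on all 5 arrays (2 residual and 1.24 prior degrees of freedom), Benjamini-Hochberg adjusted at 0.05. The untreated array has no replicate and was assumed to vary like the others. Quantile normalization of the log2 values was an alternative, with other floors, filters and left-out arrays. The fit was also run on simulated data with a small, even spread and large changes, unlike the uneven spread of these arrays. That run checks the code and does not bear on the calls reported here. Members, lists and tests were chosen with earlier results of these data known. All members are named, and of each other list the 3 genes of largest difference at 18 h against untreated. MX1, GAPDH, ACTB, YWHAZ, HPRT1, CXCL10, CD14, VIM and PECAM1 were added after their values were seen. Only probe sets with 1 symbol stood for genes in lists, and where a gene had several of these, the one of highest mean was used. The largest number of equal values between 2 arrays was 141, so none is a copy.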

Additional observations from a re-analysis of the deposited data

Results flagged for a closer look

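IFITM2/IFITM3 was marked because both 6 h arrays lay below the untreated-labelled array (177 and 1190 against 1488) and both 18 h arrays above it (1578 and 2412). Its log2 difference from untreated was -1.69 at 6 h and 0.39 at 18 h. The difference between the times, 18 h against 6 h, was 2.08 (SE 1.12). It was part of the limma comparison that called 0 probe sets. No p-value is given for it, since the members were chosen with 18 h values in view. Like IRF1 and CXCL10, this probe set read higher on the untreated-labelled array than on 6 h replicate 1. The authors' deposited list gives 254 as its control value. Groups here have too few arrays for a search for single arrays that stand apart.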

How the results depend on the processing

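Under floors of 1, 50 and 100, a pseudocount of 16, a mean of at least 100, quantile or median scaling, the replicate number as a block and leaving out each treated array, limma called 0 probe sets in all 3 comparisons (range without single arrays 0 to 0). With no filter on dim probe sets it called 100 at 6 h against untreated, 97 at 18 h against untreated and 1 at 18 h against 6 h, none of them members, and 92, 91 and 1 of these had no spread within either treated pair. Same-numbered arrays deviated in opposite directions (r = -0.29 over probe sets, without scaling of the arrays). The intensities of 6 h replicate 1 and 18 h replicate 2 also had the wider range at each time (SD 410 and 350). The r therefore cannot show whether the numbers pair the arrays. The replicate block left the members' medians at -0.17, 0.54 and 0.45 and the calls at 0, and a crossed block, chosen after seeing the data, also called 0.

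The members' median at 6 h against untreated was 0 with floors of 50 and 100 and with the mean of at least 100, and -0.11 after quantile normalization; without single arrays it ran from -0.17 to 0. At 18 h against untreated it ran from 0.43 to 0.81 without single arrays. For 18 h against 6 h it was 0.96 with a floor of 1 and ran from 0.37 to 0.73 without single arrays. The median ratio of the 6 h mean to the 18 h mean over the 7 bright members was 0.378, 0.449 after quantile normalization, and 0.345 to 0.438 without single 18 h arrays. For 6 h replicate 2 alone it was 0.596, and 0.493 without 18 h replicate 1 and 0.691 without 18 h replicate 2.

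Single members kept their sign at 18 h against untreated in all alternatives that fitted them, except IFITM1 and the dim IFI35 probe set. IFITM1 was 0.36 without 18 h replicate 1, and the dim IFI35 probe set was -0.14 without 18 h replicate 2. IFI6 was fitted in only 10 alternatives, against 14 for ISG15. No alternative left out the single untreated-labelled array, on which each of these signs depends. For 18 h against 6 h, IFITM1 was -0.48 without 18 h replicate 2 and -0.10 without 6 h replicate 2, and IFI27 -0.25 without 6 h replicate 2. The number of arrays and the signal over the floor limit precision, and IFI6 cannot be judged.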
